A study of Mus musculus with 14 samples.

Results

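Neural stem cells (NSCs) that had reached culture by 5 routes were compared, as one class, with the 2 non-neural cell types measured on the same platform, embryonic stem cells (ESCs) and mouse embryonic fibroblasts (MEFs). The class held 10 of the 14 arrays, 2 for each NSC group, and the ESCs and MEFs held the other 4. Brain-NSCs came from 13.5 dpc fetal brains of ROSA26/OG2 heterozygous double transgenic mice, and the MEFs came from 13.5 dpc fetuses of that genotype. iPS-cNSCs were differentiated in vivo: iPSCs were aggregated with B6C3F1 embryos, and the donor-derived cells of 13.5 dpc chimeric brains were selected with neomycin. NED-NSCs were the normal embryo-derived, X-gal-negative NSCs of 13.5 dpc brains from such chimeras. iPS-NSCs #1 and iPS-NSCs #3 were 2 lines differentiated in vitro. The iPSCs had been made from ROSA26/OG2 MEFs with retroviral Oct4, Sox2, Klf4 and c-Myc, so the iPS-cNSCs and both iPS-NSC lines carried those transgenes. The ESCs were derived from 3.5 dpc blastocysts and labelled OG2 heterozygous double transgenic. All NSC groups were grown in serum-free medium with EGF and bFGF on gelatin, whereas ESCs were kept on inactivated MEF feeder layers in serum with LIF, per the labels, and the culture of the MEFs is not given in the sources used here. Cell type and culture condition therefore cannot be told apart in any value below.

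NSCs are dividing cells of the neuroepithelium and radial glia that can give rise to neurons, astrocytes and oligodendrocytes. In culture, EGF and FGF signalling keeps them proliferating, Notch signalling holds back differentiation, and SOX and OLIG transcription factors mark them. ESCs rest on the Oct4, Nanog and Klf circuit of pluripotency, while MEFs are mesenchymal cells that secrete collagen matrix and contract through actin stress fibres. A gene shared by all NSC routes and set apart from both other cell types is thus measured against 2 very different backgrounds.

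The values are the deposited quantile-normalized log2 signals of Illumina MouseRef-8 v2 arrays. A signal of 7.7 or more was counted as above background, which is where the detection p-value crossed 0.05 on the 10 arrays with matched intensities (brain-NSCs, NED-NSCs, iPS-cNSCs, ESCs and MEFs). That level was carried over to the 4 iPS-NSCs #1 and #3 arrays, whose detection p-values were not used here. Of 9594 genes tested, 1559 (16.2%) met the rule for higher genes, in which the lowest of the 5 NSC group means exceeded both the ESC and the MEF mean. The mirror rule for lower genes was met by 1121 (11.7%). The distance between that extreme NSC group mean and the nearer of the ESC and MEF means is called the gap. Genes were called shared when they also differed by over 2-fold at a limma adjusted p under 0.05 from ESCs and from MEFs, with the mean of the 5 NSC groups on one side. This left 418 shared higher genes (4.36% of all tested) and 247 shared lower genes (2.57%). Taken singly, the NSC mean was higher than ESCs in 1133 genes (11.8%) and lower in 901 (9.39%), and it was higher than MEFs in 1028 (10.7%) and lower in 991 (10.3%). Since the rule chose genes from these same arrays, the shared counts are a description and not a further test. The same holds for the p-values and the lack of overlap of genes picked by their gap.

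**Figure D1:**
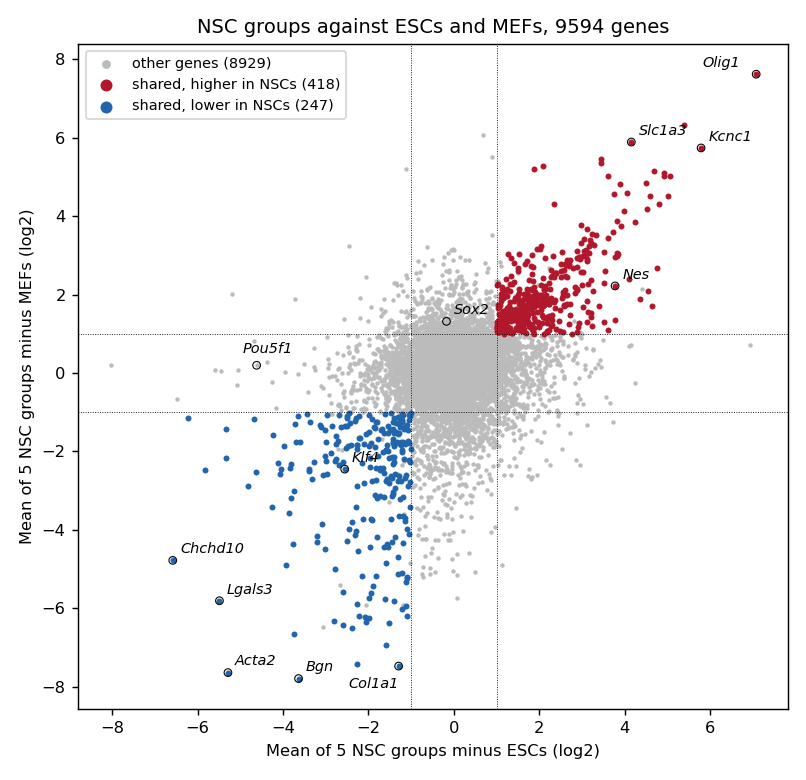
Each of 9594 genes is plotted by the mean of the 5 NSC groups minus the ESC mean (horizontal, log2) and minus the MEF mean (vertical, log2), with dotted lines at 2-fold. The 418 shared higher genes lie at the upper right with Olig1 farthest out, the 247 shared lower genes lie at the lower left, and Sox2 and Pou5f1 lie near 0 on 1 axis.

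The defining markers of each class were measured in its arrays. Nes, Sox2, Fabp7, Olig1, Olig2, Slc1a3 and Sox9 were above background on all 10 NSC arrays, Pou5f1, Nanog, Zfp42, Esrrb and Dppa5a on both ESC arrays, and Col1a1, Col1a2, Thy1 and Twist1 on both MEF arrays. Detection alone did not set the classes apart. The fibroblast surface marker Thy1 was also above background on 8 of 10 NSC arrays and reached a mean of 12.64 in iPS-NSCs #1. On NSC arrays, Esrrb was above background on 10, Pou5f1 on 8, Twist1 on 7, and Col1a2 and Dppa5a on 6. Thy1, Col1a1, Col1a2 and Twist1 were so on both ESC arrays, and Nanog and Zfp42 on both MEF arrays. Nes and Slc1a3 were above background on all 4 ESC and MEF arrays. Sox2 and Olig1 were so on both ESC arrays, and Sox9 on both MEF arrays. Defining markers of microglia (C1qa, Ptprc), endothelium (Pecam1, Cdh5), myelin (Mog, Mag), neurons (Tubb3, Rbfox3) and astrocytes (Gfap, Aqp4) were above background on fewer than 4 arrays and were not tested. Other markers on these lists were measured on NSC arrays: the neuronal Syn1 on 10 of 10 (mean 9.50) and Dcx on 6, the microglial Aif1 on 8 and on all 4 ESC and MEF arrays, the endothelial Kdr on 5, and the astrocytic Aldh1l1 on 9 and S100b on 4. In these bulk samples, fewer cells of a type and less RNA per cell cannot be told apart. Replicate arrays correlated at 0.990 to 0.998 across probes, and mean correlations were 0.928 to 0.971 between NSC groups and 0.789 to 0.846 between an NSC group and ESCs or MEFs. The labels do not say whether the pair of arrays of a group came from different cultures. The p-values then cover array-to-array variation alone, some or all of it possibly technical.

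The promoter windows of the leading shared higher genes are shown because these genes moved together in all 5 NSC groups. Of the 4 genes with the widest gap, Kcnc1 and Fam181b had a window in the RefSeq table (GRCm38.p6), and Olig1 and Bcas1 are named only. Each window runs from 250 bases before to 50 bases after the start of the gene, 5′ to 3′. The capitals mark the single match to any of 6 motifs searched on both strands. In the Kcnc1 window on chr7:46396218-46396517, plus strand, the capitals are the reverse-strand match to an RFX core (GTTGCC) at base 110 of the window. In the Fam181b window on chr7:93079629-93079928, plus strand, they are the reverse-strand match to a TATA box (TATAAA) at base 170.
Kcnc1: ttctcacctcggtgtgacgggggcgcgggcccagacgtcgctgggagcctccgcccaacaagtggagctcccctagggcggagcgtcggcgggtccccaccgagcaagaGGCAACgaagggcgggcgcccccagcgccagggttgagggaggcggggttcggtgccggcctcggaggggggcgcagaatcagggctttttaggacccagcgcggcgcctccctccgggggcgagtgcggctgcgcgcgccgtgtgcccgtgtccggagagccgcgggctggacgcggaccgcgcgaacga
Fam181b: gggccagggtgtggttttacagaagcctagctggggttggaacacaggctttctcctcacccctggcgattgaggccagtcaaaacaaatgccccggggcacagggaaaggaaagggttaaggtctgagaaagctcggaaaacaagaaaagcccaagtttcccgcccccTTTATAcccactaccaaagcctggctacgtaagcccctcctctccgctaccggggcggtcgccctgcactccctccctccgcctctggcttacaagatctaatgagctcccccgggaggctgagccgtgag
The Kcnc1 window had a GC content of 74.7% and 41 CpG dinucleotides, against 58.7% and 12 in Fam181b.

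Windows were found for 334 of the 418 shared higher genes, 194 of the 247 shared lower genes and 7805 of all 9594. A SOX core (CATTGT) was in 8.68% of shared higher windows, 3.09% of shared lower windows and 7.05% of all windows. The POU octamer core (ATGCAAA) was in 4.19%, 3.09% and 3.46%, and the E-box CAGCTG in 16.5%, 18.6% and 14.7%. A TATA box was in 7.49% of shared higher windows, 15.0% of shared lower windows and 7.46% of all. The RFX core was in 10.8%, 10.3% and 12.4%, and the RBPJ core (TGGGAA), bound by the Notch effector RBPJ, in 19.5%, 27.8% and 22.8%. Windows with at least 10 CpG dinucleotides made up 75.7% of the shared higher, 70.1% of the shared lower and 82.2% of all windows. The shares in shared higher windows were close to those of all windows. These matches are letters in a window and were not tested as binding sites.

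Olig1, a basic helix-loop-helix factor of the oligodendrocyte lineage and neural progenitors, had the widest gap of all shared genes. Its log2 signal was 14.91 and 14.94 in brain-NSCs, 14.99 and 14.82 in NED-NSCs, 15.56 and 15.50 in iPS-cNSCs, 14.93 and 14.96 in iPS-NSCs #1 and 14.81 and 15.09 in iPS-NSCs #3, against 8.05 and 7.89 in ESCs and 7.46 and 7.40 in MEFs. All 10 NSC arrays lay far above the other 4. The NSC mean was 135-fold higher than in ESCs and at least 163-fold higher than in MEFs, where no array was above background (limma adjusted p = 1.3e-19 and 2.1e-20). Here and below, a fold against a group with no array above background is a lower bound set at the background level. Kcnc1, which encodes the Kv3.1 potassium channel, came next, at 12.69 to 13.74 over the NSC arrays (median 13.13), against 7.45 and 7.26 in ESCs and 7.47 and 7.35 in MEFs. Neither ESCs nor MEFs were above background, and the NSC mean was at least 43.6-fold higher than in each. A second Kcnc1 probe met the rule but differed by only 0.15 and 0.23 on the log2 scale.

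Genes of glial progenitors followed. Bcas1, a marker of early oligodendrocytes, measured 13.12 to 14.56 (median 13.91) on the NSC arrays, against 8.43 and 8.49 in ESCs and 7.51 and 7.54 in MEFs, which made it 41.8-fold higher than in ESCs and at least 70.9-fold higher than in MEFs. Bcan, which encodes the brain proteoglycan brevican, measured 11.78 to 12.86 (median 12.33) on NSC arrays, against 7.37 and 7.40 in ESCs and 7.26 and 7.31 in MEFs. It was at least 24.2-fold higher in NSCs than in each, and a second Bcan probe was also shared. Slc1a3, the glutamate transporter of radial glia and astrocytes, was near the top of the scale in NSCs at 14.09 to 15.67 (median 15.05). It was still above background elsewhere, at 10.85 and 10.83 in ESCs and 9.17 and 9.05 in MEFs, so that NSCs were 17.8-fold and 59.3-fold higher. Groups did not overlap for any of these genes.

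Transcription and signalling genes formed a further part of the 15 widest. Rfx4, a winged-helix factor of the developing neural tube, measured 11.69 to 13.11 (median 12.47) in NSCs, against 7.997 and 7.65 in ESCs and 7.40 and 7.32 in MEFs. Fam181b measured 12.23 to 12.94 (median 12.51) in NSCs, against 7.55 and 7.64 in ESCs and 7.38 and 7.43 in MEFs, at least 28.1-fold higher than in each. Tril, a component of Toll-like receptor signalling expressed in brain, measured 12.75 to 14.10 (median 13.04), against 8.04 and 8.25 in ESCs and 8.17 and 8.15 in MEFs. For Rfx4 1 of 2 ESC arrays was above background, and both were for Tril. Vav3 was 22.9-fold higher than in ESCs and 18.1-fold higher than in MEFs, and the kinase gene Aatk was 14.04-fold and 14.8-fold higher. Of the others, Ncald (a neuronal calcium sensor), Astn1 (a neuron-glia adhesion protein), Chst7 (a chondroitin sulfotransferase), Spsb4 and Syt11 (a synaptotagmin) had gaps of 4.27, 3.97, 3.92, 3.39 and 3.39. Further probes did not always show the same size. Second probes of Rfx4, Gpm6a, Nkx2-2 and Cdkn2c met the rule but were not shared. The Rfx4 probe was 0.27 higher than ESCs and 0.30 higher than MEFs on the log2 scale. Both further probes of Dbi, Hes6, Asns and Syt11 were not shared either, and 1 of Asns and 1 of Syt11 did not meet the rule. Among genes named below, 1 further probe of Sox21 and 1 of Nsdhl did not meet it. For 1 further probe of Prkd3 (0.08 and 0.27) and 1 of Tgfbi (-0.30 and -0.37) the differences from ESCs and MEFs were small. Over the 15 genes with the widest gap, picked on these same arrays, the highest limma adjusted p in either contrast was 6.1e-16, for Spsb4 against ESCs.

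**Figure D2:**
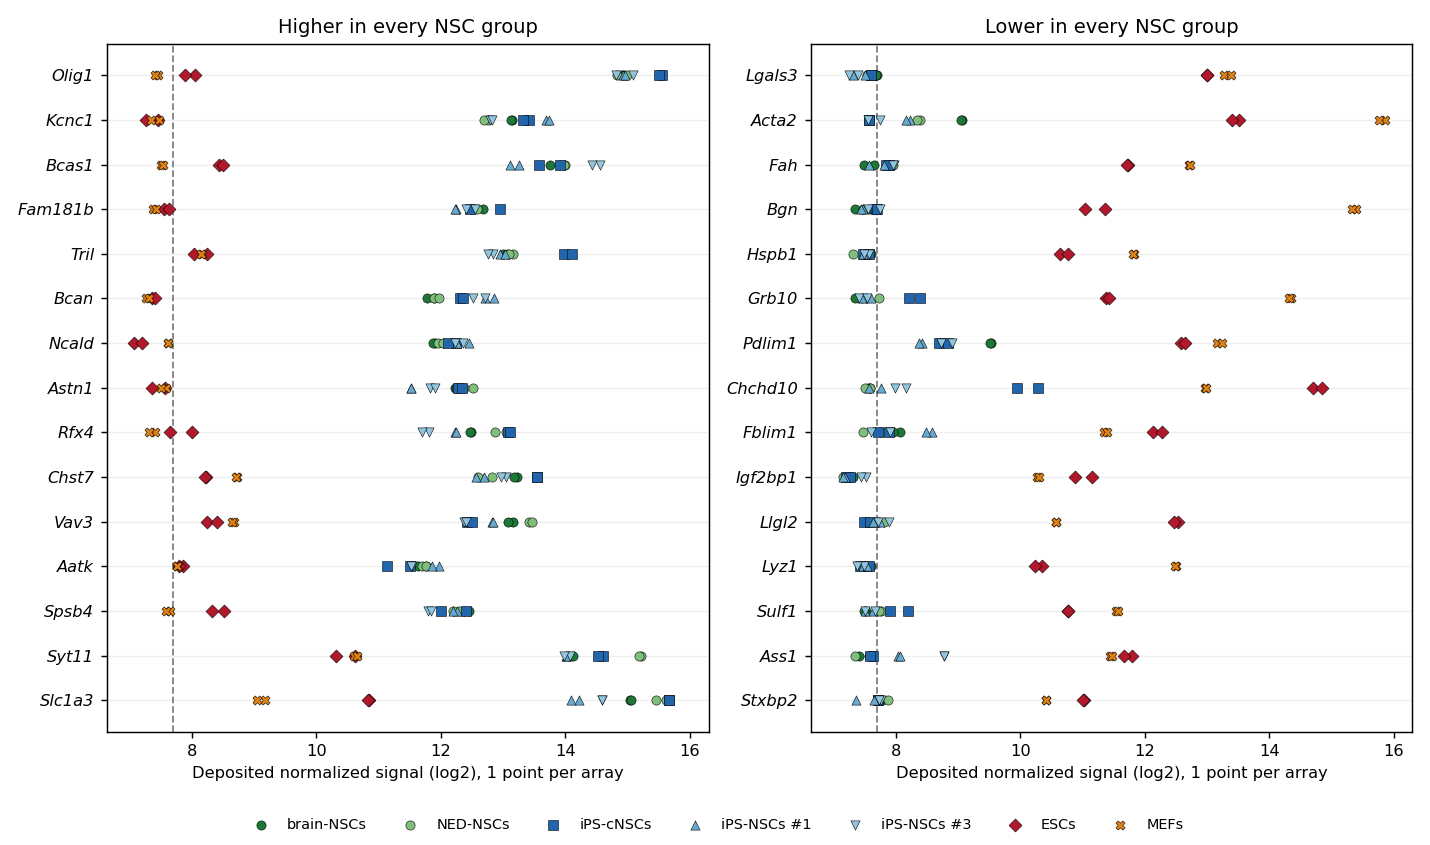
Each point is 1 array and gives its log2 signal (horizontal) for the 15 shared higher genes (left panel) and the 15 shared lower genes (right panel) with the widest gap, with colours and shapes for the groups and a dashed line at the background level of 7.7. In every row the 10 NSC arrays sit on one side of the 4 ESC and MEF arrays, and Chchd10 shows iPS-cNSCs apart from the other NSC groups.

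Over the whole shared higher set the gap had a median of 0.92 on the log2 scale and was above 2-fold in 181 of 418 genes and above 8-fold in 19. All 10 NSC arrays lay above all 4 other arrays in 398 of the 418, against 1104 genes (11.5%) over all tested, a count the rule itself largely fixes. No ESC or MEF array was above background in 84 of the 418. ESCs and MEFs were within 2-fold of each other in 85.6% of shared higher genes, against 71.0% of all genes, and ESCs were the higher of the pair in 49.5%. At the edge of the rule, Plxnb1 was just inside, its lowest NSC group mean and its MEF mean both rounding to 7.83. Bricd5 was just outside, at 7.44 in both brain-NSCs and ESCs.

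Neural stem cell markers were among the lists with the largest shared share. Of 14 tested, 6 were shared higher (Rfx4, Slc1a3, Nes, Notch1, Fabp7 and Sox9) and 0 shared lower, 10 were higher and 0 lower than in ESCs, and 8 were higher and 1 lower than in MEFs. The median of the list was 1.79 against ESCs and 1.42 against MEFs, beside 0.03 and 0.09 over all genes. Nes, which encodes the intermediate filament Nestin, measured 11.49 to 12.27 (median 11.81) on NSC arrays, against 7.99 and 8.21 in ESCs and 9.77 and 9.54 in MEFs. It was 13.7-fold higher than in ESCs and 4.66-fold higher than in MEFs, and a second Nes probe was shared as well. Sox2, needed by both NSCs and ESCs, did not meet the rule. It measured 8.46 to 9.37 (median 8.92) on NSC arrays, against 9.12 and 9.12 in ESCs and 7.60 and 7.66 in MEFs, and the difference from ESCs was -0.17 (limma adjusted p = 0.072). A second Sox2 probe was 0.80 lower than in ESCs, so the probes differ there. Against MEFs it was 1.32 higher on the log2 scale (limma adjusted p = 2.7e-10).

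Of 8 SOX genes 4 were shared higher: Sox8, Sox5, Sox21 and Sox9. Sox8 was the most even of them, at 10.36 to 10.97 (median 10.75) in NSCs, against 7.53 and 7.56 in ESCs and 7.64 and 7.69 in MEFs, at least 8.09-fold higher than in each. Sox21 split the 2 non-neural types, with 11.99 to 13.65 (median 12.92) in NSCs, against 10.83 and 10.68 in ESCs and 7.48 and 7.63 in MEFs. Sox9, a glial and stem cell SOX factor, measured 8.37 to 10.52 (median 9.62) in NSCs, against 7.45 and 7.59 in ESCs and 7.83 and 7.98 in MEFs, and its call was lost when the spread between the 5 NSC groups was used as the error. Among 12 oligodendrocyte lineage genes 5 were shared higher (Olig1, Bcas1, Sox8, Nkx2-2 and Cnp). Against ESCs 5 of the 12 were called higher and 0 lower, and against MEFs 6 higher and 3 lower. Nkx2-2, a homeodomain factor of ventral neural progenitors, measured 10.07 to 11.30 (median 10.84) in NSCs, against 7.74 and 7.49 in ESCs and 7.27 and 7.24 in MEFs. The myelin gene Mbp, named after its values were seen, averaged 7.62 in NSCs, against 7.93 in ESCs and 8.93 in MEFs, and was called lower than in MEFs.

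Neural adhesion and proteoglycan genes had the largest share, with 10 of 17 shared higher and 0 lower, 13 called higher than in ESCs and 12 higher than in MEFs. Beside Bcan and Astn1, the proteoglycan gene Cspg5 measured 10.84 to 13.33 (median 11.37) in NSCs, against 7.85 and 7.71 in ESCs and 7.67 and 7.62 in MEFs. The neuronal membrane glycoprotein gene Gpm6a measured 10.13 to 12.57 (median 10.61) in NSCs, against 7.16 and 7.24 in ESCs and 7.34 and 7.33 in MEFs, at least 9.41-fold higher than in ESCs. Both were highest in iPS-cNSCs. The other shared members were Ncan, Cdh4, Cntn1, Gpm6b, Lsamp and Nrcam. Of 16 radial glia and astrocyte genes 7 were shared higher, among them Aldoc and Dbi. Against ESCs 9 of the 16 were called higher and 2 lower, and against MEFs 8 higher and 2 lower. Aldoc, the brain aldolase, measured 12.34 to 13.60 (median 13.17) in NSCs, against 9.68 and 9.73 in ESCs and 7.70 and 7.68 in MEFs, a 10.8-fold difference from ESCs. Dbi, the diazepam binding inhibitor, was bright in all cells, at 15.59 to 15.99 (median 15.69) in NSCs, against 13.47 and 13.41 in ESCs and 14.35 and 14.18 in MEFs.

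Of 10 neuron genes, Map2 and Mapt were shared higher and Stmn2 shared lower. Map2, the dendritic microtubule-associated protein, measured 11.97 to 13.23 (median 12.43) in NSCs, against 8.59 and 8.71 in ESCs and 9.54 and 9.45 in MEFs, 14.2-fold and 7.90-fold higher. Mapt, which encodes tau, met the rule narrowly with a gap of 0.11, and one NSC array (8.47 in iPS-NSCs #3) lay below the higher ESC array (8.52). Its second probe did not meet the rule, and its call was lost with the spread between NSC groups and with the mean of its probes. Stmn2, a tubulin-binding protein of growing axons, was not above background on any NSC array, against 11.23 and 11.33 in ESCs and 9.80 and 9.76 in MEFs. It was at least 11.95-fold lower in NSCs than in ESCs and at least 4.24-fold lower than in MEFs. Forebrain and midbrain factors Sall3, Otx1 and Lhx2 were the 3 shared of 10 tested. Of the 10, 4 were higher and 1 lower than in ESCs, and 4 higher and 1 lower than in MEFs. Otx1 measured 9.16 to 11.75 (median 10.66) in NSCs and was not above background in ESCs or MEFs, and its call was lost with the spread between NSC groups. Lhx2 measured 8.18 to 9.07 (median 8.44) in NSCs, with no ESC or MEF array above background. Its call was lost on the 10 arrays with matched intensities, both with the deposited values and with median scaling.

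**Figure D3:**
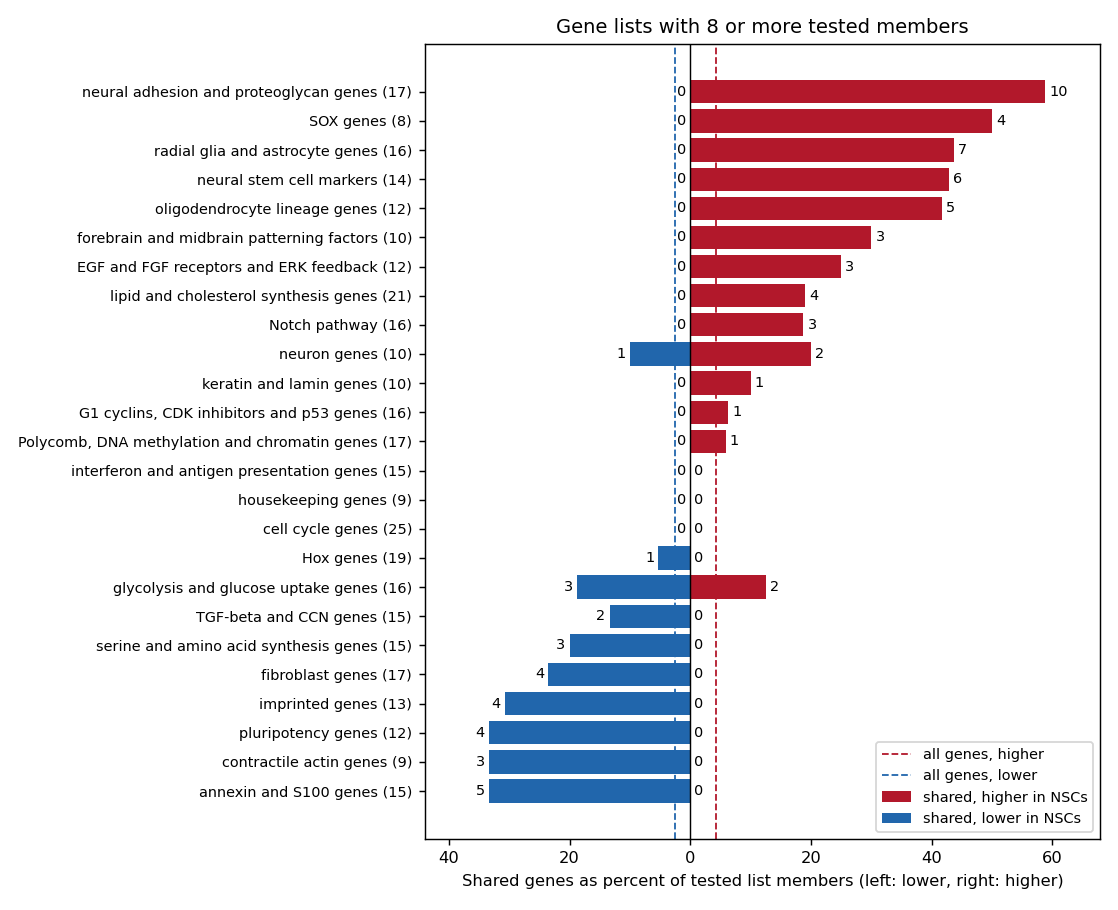
Bars give, for each list with 8 or more tested members (number in parentheses), the percent of members shared and higher in NSCs (right) or shared and lower in NSCs (left), with counts at the bar ends and dashed lines for all genes (4.36% and 2.57%). Neural adhesion genes extend farthest to the right with 10 of 17, and cell cycle, housekeeping and interferon lists have 0 on both sides.

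In the Notch pathway 3 of 16 genes were shared higher, the receptor gene Notch1, the target gene Nrarp and Hes6. Of the 16, 5 were higher and 1 lower than in ESCs, and 6 higher and 0 lower than in MEFs. Notch1 measured 10.74 to 11.65 (median 11.17) in NSCs, against 8.78 and 8.55 in ESCs and 9.41 and 9.66 in MEFs. Nrarp measured 8.92 to 10.98 (median 9.90) in NSCs, against 8.30 and 8.07 in ESCs and 7.56 and 7.60 in MEFs, and its call was lost with the spread between NSC groups. Among 12 EGF and FGF receptor and ERK feedback genes, Dusp6, Etv5 and Spred1 were shared higher. The list held 4 genes higher and 1 lower than in ESCs, and 6 higher and 1 lower than in MEFs. Dusp6, an ERK phosphatase induced by FGF signalling, measured 13.54 to 14.76 (median 14.13) in NSCs, against 12.21 and 12.16 in ESCs and 12.10 and 11.95 in MEFs. Its other 2 probes were also shared. Etv5, an ETS factor downstream of the same pathway, was 2.85-fold higher than in ESCs and 6.40-fold higher than in MEFs, a call also lost with the spread between NSC groups.

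Cell cycle genes gave no shared call. Of 25 tested, 0 were higher and 5 lower than in ESCs, and 21 were higher and 0 lower than in MEFs, with a list median of -0.38 against ESCs. Among 16 G1 regulators only Cdkn2c, the CDK inhibitor p18, was shared higher, at 10.49 to 11.59 (median 11.25) in NSCs, against 8.21 and 8.38 in ESCs and 8.53 and 8.40 in MEFs. The G1 list split by cell type, with 8 higher and 1 lower than in ESCs but 1 higher and 7 lower than in MEFs. Its medians were 0.96 and -0.83. Among 17 chromatin genes only Bmi1 was shared, a Polycomb gene known for NSC self-renewal. It measured 10.00 to 10.65 (median 10.34) in NSCs, against 7.92 and 7.99 in ESCs and 8.67 and 8.67 in MEFs, 5.20-fold and 3.17-fold higher. In the chromatin list 1 gene was higher and 4 lower than in ESCs, and 5 were higher and 0 lower than in MEFs. The shared higher shares of the G1 and chromatin lists, 6.25% and 5.88%, were near the 4.36% of all genes. Lipid and cholesterol synthesis genes had 4 of 21 shared (Dhcr7, Fads2, Hmgcs1 and Nsdhl), 11 higher than in ESCs and 6 higher and 1 lower than in MEFs. Hmgcs1, an early enzyme of the cholesterol pathway, measured 15.22 to 15.76 (median 15.60) in NSCs, against 13.60 and 13.51 in ESCs and 14.41 and 14.25 in MEFs. Against MEFs this list depended on the scaling: with the 10 matched arrays scaled to a common median, 1 of its genes was higher and 1 lower than in MEFs, its median was -0.13, and 1 was shared. Under that scaling Fads2, Hmgcs1, Nsdhl, Spred1, Dbi and Pfkm also lost their calls.

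Lgals3, which encodes the secreted lectin galectin-3, had the widest gap of the shared lower genes at 5.31. It measured 7.69 and 7.68 in brain-NSCs, 7.55 and 7.57 in NED-NSCs, 7.60 and 7.60 in iPS-cNSCs, 7.50 and 7.31 in iPS-NSCs #1 and 7.39 and 7.24 in iPS-NSCs #3, against 13.005 and 12.9996 in ESCs and 13.27 and 13.38 in MEFs. No NSC array was above background, and NSCs were at least 39.5-fold lower than ESCs and at least 49.4-fold lower than MEFs (limma adjusted p = 6.5e-19 and 8.2e-20). Acta2, smooth muscle actin, measured 9.07 and 9.04 in brain-NSCs, 8.38 and 8.35 in NED-NSCs, 7.57 and 7.58 in iPS-cNSCs, 8.23 and 8.16 in iPS-NSCs #1 and 7.56 and 7.74 in iPS-NSCs #3, against 13.51 and 13.40 in ESCs and 15.86 and 15.76 in MEFs. Every NSC array was lower than every ESC and MEF array, though 7 of 10 were above background, and the NSC mean was 39.1-fold lower than in ESCs and 200.2-fold lower than in MEFs. The 3 further Acta2 probes met the rule, and 2 of them were shared.

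Metabolic and stress genes were among the 15 widest. Fah, the last enzyme of tyrosine breakdown, measured 7.49 to 7.96 (median 7.87) in NSCs, against 11.73 and 11.72 in ESCs and 12.70 and 12.73 in MEFs. The small heat shock gene Hspb1 was not above background on any NSC array, against 10.65 and 10.76 in ESCs and 11.83 and 11.82 in MEFs, at least 8.02-fold and 17.4-fold lower. Ass1, an enzyme of arginine synthesis, measured 7.34 to 8.78 (median 7.63) in NSCs, against 11.79 and 11.67 in ESCs and 11.44 and 11.47 in MEFs. ESCs and MEFs were close to each other for Ass1, unlike for Fah and Hspb1. The mitochondrial protein gene Chchd10 had the widest range over NSC groups of these 15 genes, with 9.94 and 10.28 in iPS-cNSCs and 7.51 to 8.16 on the other NSC arrays, against 14.70 and 14.85 in ESCs and 12.96 and 12.99 in MEFs. Igf2bp1, an RNA-binding protein of fetal tissues, was not above background in any NSC group, against 11.15 and 10.87 in ESCs and 10.28 and 10.30 in MEFs, at least 9.93-fold and 6.01-fold lower. Llgl2, a polarity gene of epithelia, Lyz1 (a lysozyme), Sulf1 (a heparan sulfate sulfatase) and Stxbp2 (a vesicle fusion protein) had gaps of 2.78, 2.72, 2.72 and 2.63. Over the 15 lower genes, likewise picked by gap, the highest limma adjusted p was 4.4e-15, for Stxbp2 against MEFs.

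Over the 247 shared lower genes the median gap was 1.15, with 157 above 2-fold and 7 above 8-fold, and all NSC arrays lay below all ESC and MEF arrays in 244, against 815 genes (8.49%) over all tested. In 33 genes no NSC array was above background. ESCs and MEFs were within 2-fold of each other in 48.6%, against 71.0% of all genes. At the edge, Zfp595 was just inside, with its highest NSC group mean and its ESC mean both at 7.97. Pofut1 was just outside, at 8.92 in both iPS-NSCs #1 and ESCs.

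**Figure D4:**
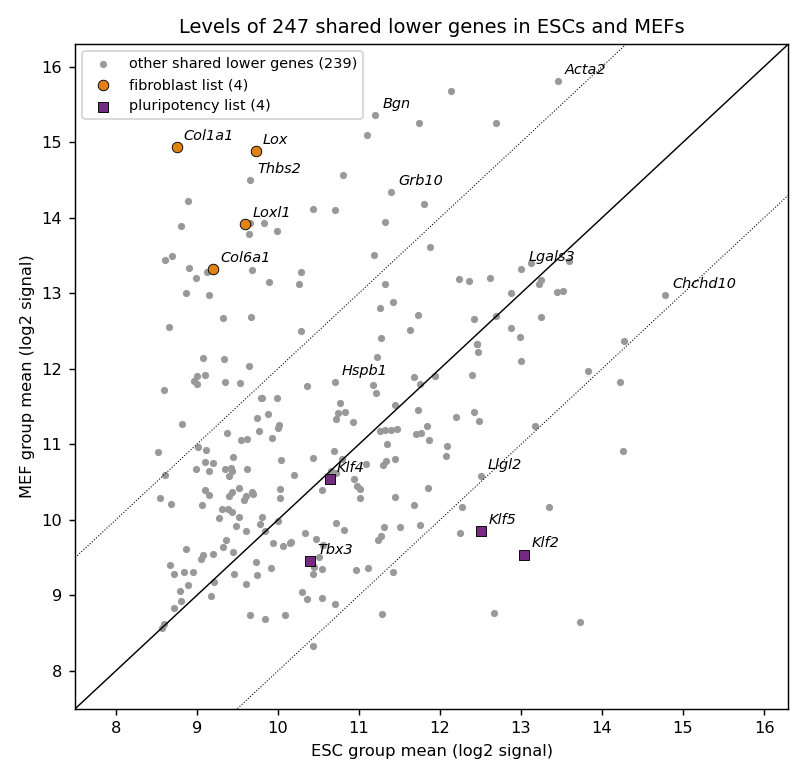
Each point is 1 of the 247 shared lower genes, by its ESC mean (horizontal) and MEF mean (vertical, both log2 signal), with the solid line at equality and dotted lines at 4-fold. Of the 247, 51 lie above the upper dotted line, among them Bgn, Lox and Col1a1, and 12 lie below the lower one, among them Klf2.

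Genes of collagen matrix, actin contraction and calcium binding were also among the shared lower genes. Of 17 fibroblast genes 4 were shared lower (Lox, Loxl1, Col1a1 and Col6a1), while 17 were lower than in MEFs and 5 lower than in ESCs. Sparc was the 1 called higher than in ESCs. With median scaling 2 were shared lower and 2 lower than in ESCs, as Col1a1 and Col6a1 lost their calls, and Col6a1 also lost its call with the spread between NSC groups and with the deposited values of the 10 matched arrays. Lox, which cross-links collagen, was not above background on any NSC array, against 9.69 and 9.77 in ESCs and 14.97 and 14.80 in MEFs, at least 4.08-fold and 145-fold lower. Col1a1, the main chain of type I collagen, was likewise not above background in NSCs, against 8.68 and 8.82 in ESCs and 14.94 and 14.94 in MEFs, at least 2.07-fold and 151-fold lower. Bgn, which encodes the matrix proteoglycan biglycan, measured 7.34 to 7.75 (median 7.56) in NSCs, against 11.37 and 11.03 in ESCs and 15.39 and 15.33 in MEFs. These 3 genes were far lower in ESCs than in MEFs. Over the 17 fibroblast genes the ESC signal was 1.37% to 26.7% of the MEF signal (median 5.02%), and 15 were above background on both ESC arrays. Of 21 list members on the array 17 were tested, and Col3a1, Lum and Postn were not. A gene above background on the MEF arrays alone could not reach the 4 arrays asked for, so the filter shapes that count of 15. The summed signal of the 17 tested genes was 5540 to 19686 on NSC arrays, 9816 to 10215 on ESC arrays and 240845 to 245044 on MEF arrays. The ESCs had been grown on MEF feeder layers, and the part of feeder RNA in the shared lower genes was not tested. ESCs were at, above or less than 2-fold below the MEF level in 159 of the 247 shared lower genes, Lgals3, Ass1 and Klf4 among them.

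Of 9 contractile actin genes 3 were shared lower (Acta2, Tpm2 and Actn1). In this list 8 were lower and 0 higher than in MEFs, and 3 were lower and 1 higher than in ESCs. Tpm2, a tropomyosin, was not above background in NSCs, against 9.65 and 9.72 in ESCs and 13.36 and 13.26 in MEFs. Actn1, an actin cross-linker, varied widely across NSCs, with 8.68 and 8.87 in iPS-cNSCs and 11.50 and 11.52 in iPS-NSCs #3, against 11.81 and 11.79 in ESCs and 14.20 and 14.17 in MEFs. The focal adhesion and stress fibre genes Pdlim1 and Fblim1 belonged to the 15 widest, with gaps of 3.09 and 2.83. Of 15 annexin and S100 genes 5 were shared lower. The list had 12 lower and 0 higher than in MEFs, and 6 lower and 2 higher than in ESCs. Anxa11 measured 7.20 to 8.08 (median 7.64) in NSCs, against 11.63 and 11.74 in ESCs and 10.27 and 10.12 in MEFs, and S100a6 measured 7.22 to 7.71 (median 7.54), against 9.73 and 9.60 in ESCs and 12.67 and 12.71 in MEFs. Anxa2 was the most variable of them, from 8.77 in brain-NSCs to 11.16 in NED-NSCs, and its call was lost with the spread between NSC groups. Tgfbi and Thbs2 were the 2 shared of 15 TGF-beta and CCN genes. Of these 15, 13 were lower and 0 higher than in MEFs, and 4 were lower and 2 higher than in ESCs. The contractile, annexin and TGF-beta list medians were -0.23, -0.46 and -0.15 against ESCs. Against MEFs they were -4.06, -2.59 and -2.36.

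Of 21 pluripotency genes on the array 12 were tested. A gene above background on the ESC arrays alone could not reach the 4 arrays asked for, so the filter shapes the shares below. The tested genes split by cell type. All 12 tested were lower than in ESCs, with a list median of -4.65, whereas 4 were lower and 1 higher than in MEFs, and the 4 shared lower genes were Klf4, Tbx3, Klf5 and Klf2. All 4 were above background on both MEF arrays. Klf4, a reprogramming factor, measured 7.65 to 8.44 (median 8.10) in NSCs, against 10.72 and 10.56 in ESCs and 10.54 and 10.54 in MEFs, 5.88-fold and 5.48-fold lower, and both further Klf4 probes were shared. Klf5 measured 8.01 to 8.74 (median 8.19) in NSCs, against 12.54 and 12.47 in ESCs and 9.86 and 9.84 in MEFs. Klf2 was inside by a gap of only 0.10, as iPS-NSCs #1 (9.43 and 9.45) lay close to MEFs (9.61 and 9.47), and its call was lost with the spread between NSC groups. Tbx3 lost its call with the mean of its probes. Pou5f1, which encodes Oct4, measured 7.60 to 8.05 (median 7.85) in NSCs, against 12.44 and 12.48 in ESCs and 7.65 and 7.64 in MEFs, so it lay outside the rule. Esrrb, an ESC nuclear receptor named after its values were seen, was the 1 higher than in MEFs and was above background on all 10 NSC arrays, with a mean of 9.48 in NSCs, against 14.67 in ESCs and 7.46 in MEFs. Myc met the higher rule with 7.84 to 8.54 (median 8.30) in NSCs, against 7.66 and 7.88 in ESCs and 7.76 and 7.81 in MEFs, but its differences of 0.51 and 0.50 were under 2-fold. Whether these probes also read the retroviral copies in the iPSC-derived groups was not examined. From transgene qRT-PCR the paper reports silencing in iPS-cNSCs. Its positive controls there included iPS-NSCs that had re-expressed the transgenes.

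Of 13 imprinted genes 4 were shared lower and 0 higher: Grb10, Igf2, Impact and Dlk1. Of the 13, 1 was called higher and 6 lower than in ESCs, and 1 higher and 8 lower than in MEFs. Grb10, an adaptor that restrains insulin and IGF signalling, measured 7.35 to 8.39 (median 7.53) in NSCs, against 11.38 and 11.42 in ESCs and 14.36 and 14.32 in MEFs. Igf2, the fetal growth factor, measured 7.47 to 7.96 (median 7.69) in NSCs, against 10.29 and 10.27 in ESCs and 13.28 and 13.28 in MEFs. Impact remained well expressed, at 10.56 to 11.50 (median 11.30) in NSCs, against 13.45 and 13.44 in ESCs and 13.12 and 12.91 in MEFs. In the serine and amino acid list 3 of 15 were shared lower, and they were the stress-response genes Ddit3, Asns and Chac1. The list had 1 higher and 6 lower than in ESCs, and 0 higher and 3 lower than in MEFs. Chac1 lost its call with the spread between NSC groups, and Asns with the mean of its probes. Ddit3, which encodes CHOP, measured 8.25 to 9.54 (median 9.26) in NSCs, against 10.83 and 10.84 in ESCs and 11.51 and 11.36 in MEFs, and a second probe was shared. Glycolysis genes went both ways, with Aldoc and Pfkm shared higher and Eno2, Slc2a1 and Hk2 shared lower of 16. The lower calls were not stable: 0 were left with the spread between NSC groups as error, and 1 with the deposited values of the 10 matched arrays. Slc2a1, the glucose transporter GLUT1, was inside by a gap of 0.08 and its NSC arrays (10.14 to 11.90) overlapped the MEF arrays (11.84 and 11.81). Of 19 Hox genes 1 was shared lower (5.26%, against 2.57% of all genes), Hoxc6, and its call was lost with median scaling. In this list 2 genes were higher and 11 lower than in MEFs, and 2 were higher and 1 lower than in ESCs. Gata6, an endoderm factor, was the 1 shared of 4 primitive endoderm and trophoblast genes, not above background on any NSC array, against 8.90 and 8.71 in ESCs and 8.95 and 8.91 in MEFs. In the keratin and lamin list Nes was the 1 shared of 10, and the lists of interferon (15 tested), housekeeping (9), endothelial (6), neural crest (4) and microglia (2) genes held 0 shared genes.

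The 5 NSC groups were not equal in the genes they shared. A moderated F test over the NSC groups (limma, adjusted p under 0.05), on the arrays that also chose the genes, called a difference in 405 of 418 shared higher genes (96.9%) and 186 of 247 shared lower genes (75.3%), against 77.5% of all genes. The range over the 5 group means was under 2-fold in 167 shared higher genes (40.0%) and 178 shared lower genes (72.1%), against 81.7% of all genes. It was over 4-fold in 69 and 19, against 351 of all 9594. Signal level moved with this: no NSC array was above background in 33 of the 247 lower genes, whereas NSC means of the higher genes were raised by construction, and its part was not tested. The lowest NSC group in shared higher genes was iPS-NSCs #3 in 150 of 418 (35.9%, against 16.7% of all genes), brain-NSCs in 108, iPS-cNSCs in 78 (18.7%, against 33.0% of all genes), iPS-NSCs #1 in 48 and NED-NSCs in 34. Leaving iPS-cNSCs out of the rule on means admitted the most further genes, 321 higher and 273 lower, against 76 and 65 without NED-NSCs.

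**Figure D5:**
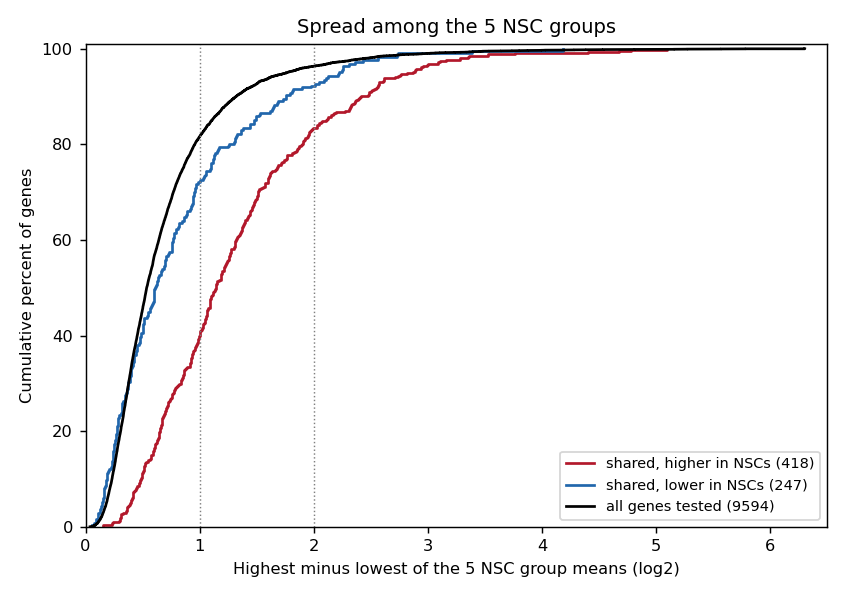
Curves give the cumulative percent of genes (vertical) by the highest minus the lowest of the 5 NSC group means (horizontal, log2), with dotted lines at 2-fold and 4-fold. The curve of the 418 shared higher genes lies to the right of the others, with 40.0% under 2-fold, against 72.1% of shared lower genes and 81.7% of all genes.

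The most uneven shared higher genes were Cacng5, Igfbp4 and Ecrg4. Cacng5, a regulator of AMPA receptors, measured 10.89 and 10.91 in brain-NSCs, 13.20 and 13.07 in NED-NSCs, 11.17 and 11.14 in iPS-cNSCs, 8.09 and 7.98 in iPS-NSCs #1 and 8.43 and 8.54 in iPS-NSCs #3, against 8.02 and 8.02 in ESCs and 7.34 and 7.37 in MEFs. It was thus shared in name, with both in vitro lines near the ESC level, and its 2 further probes did not meet the rule. Igfbp4, an IGF-binding protein, ran the other way, with 9.68 and 9.83 in brain-NSCs, 10.34 and 10.20 in NED-NSCs, 13.10 and 12.76 in iPS-cNSCs, 14.67 and 14.40 in iPS-NSCs #1 and 14.28 and 14.27 in iPS-NSCs #3, against 8.51 and 8.52 in ESCs and 9.22 and 9.43 in MEFs. The 3 iPSC-derived groups were the high ones. Ecrg4, a secreted peptide precursor, was highest in iPS-NSCs #1 (13.31 and 13.37) and lowest in NED-NSCs (8.74 and 8.58), against 7.74 and 7.70 in ESCs and 7.80 and 7.58 in MEFs. All 3 calls were lost when the spread between NSC groups was the error.

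The most even shared higher genes were Ckb, Prkd3 and Sox8, with ranges of 0.15, 0.16 and 0.23 and no difference called among NSC groups (adjusted p of the F test from limma 0.53, 0.64 and 0.50). Ckb, brain creatine kinase, measured 15.69 to 15.99 in NSCs, against 14.56 and 14.50 in ESCs and 13.70 and 13.55 in MEFs, and 15.99 is the highest value on the scale, so its range is bounded from above. Prkd3, a protein kinase D, measured 12.35 to 12.78 (median 12.54), against 11.37 and 11.37 in ESCs and 11.27 and 11.34 in MEFs. Its call was lost under median scaling and with the mean of its probes. Among the lower genes, Mmp13, Gata6 and Nfatc4 varied least, and each was above background on at most 1 of 10 NSC arrays. Renbp, Igf2bp3 and Actn1 varied most. Renbp, which binds renin, was 7.65 and 7.91 in brain-NSCs and 10.59 to 11.98 on the other NSC arrays, against 12.42 and 12.48 in ESCs and 12.35 and 12.31 in MEFs. Igf2bp3 was not above background in brain-NSCs and iPS-NSCs #3 and measured 10.21 to 10.87 in the other NSC groups, against 12.54 and 12.25 in ESCs and 11.87 and 11.96 in MEFs. The calls of these 3 genes were also lost with the spread between NSC groups.

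The rule was repeated on each set of replicate arrays. These are the arrays the rule had used, and replicates correlated at 0.990 to 0.998. The overlap is thus a description and not a further test. Of 9594 genes, the replicate 1 arrays alone gave 1480 higher and 1104 lower genes and the replicate 2 arrays alone 1466 and 1087. Of these, 1167 higher genes (78.9% and 79.6% of each list) and 885 lower genes (80.2% and 81.4%) were found in both. Other probes of the shared genes, which had not chosen them, met the same rule in 167 of 206 cases (81.1%) for higher genes and 65 of 76 (85.5%) for lower genes, against 16.9% and 8.33% of all such probes, and 0 met the opposite rule. Shared higher genes made up between 2.55% (chromosome 5) and 6.44% (chromosome 6) of the genes tested on an autosome and 3.64% on the X, and shared lower genes between 0.943% (chromosome 12) and 3.74% (chromosome 6) and 2.73% on the X.

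The error behind these calls mattered for the count. With limma on the group means, so that the error was the spread between the 5 NSC groups, 229 of the 418 higher and 190 of the 247 lower genes stayed shared. Scaling mattered for the direction of the single contrasts. Calls against ESCs were 55.7% higher in the deposited values and 75.2% higher after median scaling of the 10 matched arrays, and calls against MEFs 50.9% and 33.1% higher, as that scaling set the median of all genes at 0.20 against ESCs and -0.13 against MEFs. The split of shared genes was steadier, at 62.9% and 65.0% higher, and 322 higher and 179 lower shared genes were kept.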

How the data were processed

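The platform was the Illumina MouseRef-8 v2 array, and the submitters' processing notes name GenomeStudio 2011.1. The authors deposited log2 values that they had quantile normalized, for 14 arrays, and a table of unnormalized intensity with a detection p-value for each probe. In this deposited file of intensity and p-values, 10 signal columns matched an array by name, and 8 further columns were not used.

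The deposited log2 values were used as they are. The background level of 7.7 lay at 7.68 to 7.74 by array. Of 25697 probes, 13988 reached it on 4 or more arrays and were kept. The study's rule of 7 or more arrays, an alternative here, would drop genes seen only in ESCs and MEFs. The filter of 4 arrays still drops genes seen in ESCs alone or in MEFs alone, as each had 2 arrays. With no filter on dim probes 1036 genes were called lower than in ESCs, against 901, and 1075 lower than in MEFs, against 991. Symbols came from the platform's table (23978 probes with 1 symbol, 1719 with none) and were updated through Entrez identifiers in RefSeq GRCm38.p6 (23962 found). Each of 9594 genes was given by its kept probe with the highest mean. limma 3.58.1 (R 4.3.3) fitted 1 mean for each of 7 groups, and p-values were adjusted by Benjamini-Hochberg over kept probes. A lower bound uses, per array, the higher of the lowest signal above background and the probe's own signal. Code was tested on simulated data. Microarrays have no read depth, and the number of arrays limits the precision.

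Named genes are the 15 widest gaps on each side, up to 4 shared genes of each of 29 lists by gap, genes the paper names, the 3 most and least even shared genes on each side and the genes at the edge of the rule. Members, lists and tests were chosen with earlier results of these data known. Other list members are named without values or, as Mbp, Thy1 and the markers, after their values were seen. Alternatives changed the filter, normalization, test, probe choice, fold limit and arrays.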

Additional observations from a re-analysis of the deposited data

How the results depend on the processing

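The main values were 418 shared higher genes, 247 shared lower genes, 2034 genes called against ESCs and 2019 against MEFs. They moved by over 1.5 times with neqc on the 10 matched arrays (803, 592, 3565 and 3466), a 1.5-fold limit (767, 509, 3779 and 3710) and a 4-fold limit (108, 60, 540 and 607), and the spread between the 5 NSC group means as error left 229 shared higher genes. The 10 matched arrays hold 3 NSC groups, so the rule there asks less, and the fold limits change the count by construction. The cause of the neqc shift was not tested. The matched arrays had lowest signals of 79.8 to 96.2 in iPS-cNSCs and MEFs and of 119 to 132 in brain-NSCs, NED-NSCs and ESCs. Leaving out single arrays gave 412 to 422 higher, 245 to 252 lower, 2029 to 2049 against ESCs and 2000 to 2043 against MEFs. The filter of 7 arrays gave 418 and 180 shared genes, renewed quantile normalization 393 and 258, the deposited values of the 10 matched arrays, an alternative added after seeing the data, 467 and 272, median scaling 426 and 229, the mean of a gene's probes 376 and 229, and the methods' local-pooled-error test 418 and 247, as did keeping all dim probes. Leaving out 1 NSC group gave 400 to 454 higher and 248 to 261 lower. Fits with the replicate block gave 418 and 247 shared genes, 2034 calls against ESCs and 2019 against MEFs. The replicate numbers do not pair the samples, as correlations of same-numbered arrays' deviations ran from -0.22 to 0.11 (median 0.02, 3 of 21 pairs above 0.1). No named gene turned its direction in the alternatives run for single genes, which leave out those on fold limits and on whole NSC groups (85 named genes had a value under the filter of 7 arrays). Single named genes lost their shared call with median scaling (14), the NSC group spread (18), the mean of probes (6), the deposited values of the 10 matched arrays (4), neqc (1), and without ESCs replicate 1 (Anxa4) or ESCs replicate 2 (Dlk1 and Spred1). Signal over background limits the folds of genes near 7.7, which are bounds.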
